A study of Drosophila melanogaster with 2 samples.

Results

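Summits of OdsH-GFP binding at divergent coding gene promoters are peak summits that had, within 500 bp, an annotated start site of a protein-coding gene on each strand. Of the 7223 peaks of the thresholded list in the dm6 build, 927 (12.8%) met this rule, which used positions and the Ensembl annotation and no signal value. They are compared here with the 1992 summits (27.6%) that had coding start sites on 1 strand only within 500 bp, called one-direction promoter summits. The data are chromatin immunoprecipitations followed by sequencing from whole Drosophila melanogaster, taken as wandering larvae of the third instar, in 1 group with 2 biological replicates per the labels. All larvae were of a transgenic line that stably expresses the homeodomain protein OdsH with GFP at its C terminus, precipitated with an antibody against GFP, and neither their sex nor their exact age was recorded. No untagged or otherwise treated group was used, and the control library named in the labels was not analysed here. In whole animals, more cells bound at a site and more binding per cell cannot be told apart.

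In a divergent promoter, a pair of neighbouring genes is transcribed away from a shared stretch of DNA, with the start sites head to head. Such pairs are common in the compact Drosophila genome and are rich in broadly expressed housekeeping genes, whose core promoters often carry the DNA replication-related element (DRE), bound by the transcription factor DREF. The insulator protein BEAF-32, which binds CGATA words, is known to lie between many head-to-head genes. OdsH belongs to the homeodomain proteins, many of which recognise the core word TAAT.

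The DNA at the centre of the strongest of these promoters is shown first, because its bases recur in the results on position and motifs. The following 4 stretches run from the base after the start site of the minus-strand gene to the base before that of the plus-strand gene. They belong to the 4 strongest members whose start sites lay 100 to 300 bp apart with the summit and no exon base between them (outside 1 chromosome arm that is not shown). All are the plus strand of the Release 6 reference (RefSeq, dm6), at chr3L:5139396-5139618, chr3R:15229409-15229664, chr2L:8376798-8377034 and chr3L:9457670-9457911 in that order, and capitals mark TAAT on either strand.
Tcs5/CHMP2B: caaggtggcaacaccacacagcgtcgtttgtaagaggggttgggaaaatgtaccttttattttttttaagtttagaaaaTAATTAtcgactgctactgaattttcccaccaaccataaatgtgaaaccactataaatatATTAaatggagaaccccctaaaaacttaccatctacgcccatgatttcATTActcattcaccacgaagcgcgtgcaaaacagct
Art3/mRpS10: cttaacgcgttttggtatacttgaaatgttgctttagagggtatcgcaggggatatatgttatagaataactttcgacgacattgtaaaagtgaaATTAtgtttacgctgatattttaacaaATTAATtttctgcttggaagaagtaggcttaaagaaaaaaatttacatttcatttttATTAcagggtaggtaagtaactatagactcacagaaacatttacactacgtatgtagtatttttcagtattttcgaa
CG13390/CG17294: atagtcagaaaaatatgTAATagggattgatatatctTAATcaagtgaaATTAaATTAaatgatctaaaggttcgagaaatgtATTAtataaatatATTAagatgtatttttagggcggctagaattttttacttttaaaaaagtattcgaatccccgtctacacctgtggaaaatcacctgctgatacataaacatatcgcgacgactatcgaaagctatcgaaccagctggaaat
CG3437/CG3552: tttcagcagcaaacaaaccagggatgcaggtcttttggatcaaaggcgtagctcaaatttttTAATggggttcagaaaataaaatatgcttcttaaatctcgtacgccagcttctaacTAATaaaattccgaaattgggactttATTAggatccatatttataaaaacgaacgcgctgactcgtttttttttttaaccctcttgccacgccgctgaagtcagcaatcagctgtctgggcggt
Across these stretches 59.9% to 69.9% of the bases were A or T. In the first, the capitals nearest the summit read TAATTA, the palindromic form of the homeodomain site, where TAAT is read on both strands.

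Other words are compared below, and 4 windows of 101 bp centred on a summit show them. The first 3 windows hold the DRE word TATCGATA, in capitals, and lie at chr3L:3222980-3223080, chr3R:11216334-11216434 and chrX:9243658-9243758. The last holds TAATTA, in capitals, and lies at chr3R:24109131-24109231. The strand and source are as above, and each is among the strongest members with that word and no exon base in the window.
RpL28/eIF1: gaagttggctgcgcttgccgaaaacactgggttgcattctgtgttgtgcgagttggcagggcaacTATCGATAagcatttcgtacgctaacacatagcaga
RpS25/CG4820: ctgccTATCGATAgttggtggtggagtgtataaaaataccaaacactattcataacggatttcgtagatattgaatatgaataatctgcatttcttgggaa
mxc/Larp7: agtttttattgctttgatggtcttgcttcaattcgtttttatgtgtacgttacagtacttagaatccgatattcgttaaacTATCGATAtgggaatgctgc
eIF4EHP/CG18428: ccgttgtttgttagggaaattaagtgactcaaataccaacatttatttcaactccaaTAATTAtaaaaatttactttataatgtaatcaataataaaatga
The DRE windows ranged from 50.5% to 65.3% A and T, and the TAATTA window held 77.2%.

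The 927 summits lay at 849 distinct gene pairs and within reach of 1754 coding genes. At 877 summits exactly 2 coding genes were within 500 bp, and at 50 there were 3 or more. The summit with the most, 10, was on 3R at the pre-mod(mdg4) units, which the annotation lists as separate genes on both strands and whose transcripts are known to be joined by trans-splicing to those of mod(mdg4). Its pooled signal was 746.9, with 340.6 and 403.6 in replicates 1 and 2, and it is named after its values were seen. A start site of a noncoding gene was also within 500 bp at 17 divergent summits (1.83%, 95% Wilson interval 1.15 to 2.92) and at 131 one-direction summits (6.58%, 5.57 to 7.75). The Wilson intervals describe counting error alone. The depth of sequencing is unknown, as only peak lists were used.

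Signal at the divergent summits varied widely and was alike in order in both replicates. The signal is the value that the authors' caller gave to a peak, and its scale is not stated. In the pooled list it ran from 108.8 to 2265, with a median of 213.6 and quartiles of 145.2 and 334.7. In replicate 1 the median was 98.4, from 30.3 to 957, and in replicate 2 it was 122.0, from 37.6 to 1354. A replicate's value is that of its strongest peak with a summit within 200 bp, which was found for 922 members in replicate 1, for 923 in replicate 2 and for 918 in both. Replicate 2 was higher at 768 of these 918 (83.7%), with a median log2 ratio of 0.33 and an SD over members of 0.44. Over all thresholded peaks with both partners it was higher at 5578 of 7173 (77.8%), with a median log2 ratio of 0.26. At one-direction summits with both partners it was higher at 73.9%. Spearman's rho between replicates was 0.85 over the 918 members. The same rho was 0.80 over 1972 one-direction summits. These coefficients are descriptions, since the list was itself chosen from these replicates and neighbouring summits can share a partner, as 76 members did in replicate 1 and 62 in replicate 2. Replicate summits of a member lay a median of 25 bp apart, and 648 of 918 (70.6%) lay within 50 bp of each other.

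**Figure D1:**
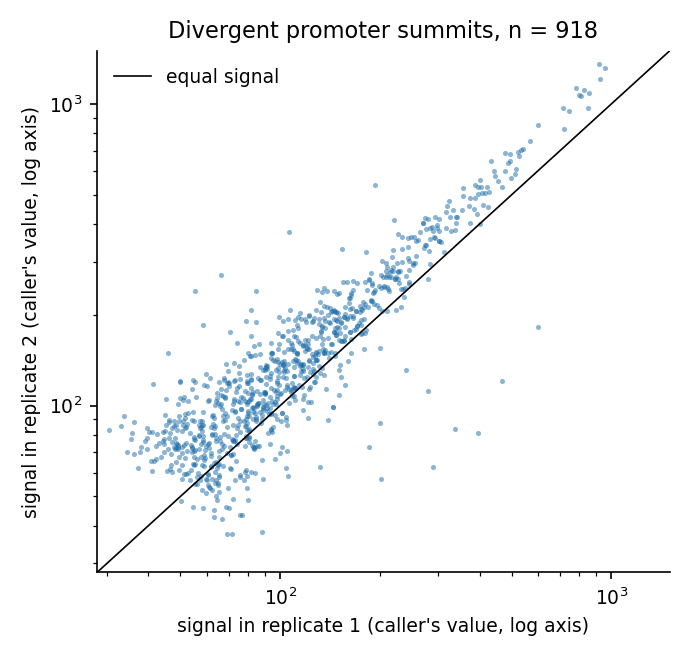
Signal of the 918 divergent promoter summits with a partner in both replicates, replicate 1 on the horizontal and replicate 2 on the vertical axis, both logarithmic; each point is a summit and the line marks equal signal. Most points (768 of 918) lie above the line, and 3 points far below it, whose ratio lay farthest from the median ratio, are weaker neighbours of a strong summit.

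The strongest divergent summit lay between mRpS23, which encodes a protein of the small mitochondrial ribosomal subunit, and CenG1A, which encodes an Arf GTPase-activating protein (2L, peak at 13835275 to 13835646). It had a pooled signal of 2265, with 957.0 in replicate 1 and 1317 in replicate 2, and was number 12 in rank among all 7223 peaks. The next was between Tcs5 and CHMP2B, a gene of the ESCRT-III membrane-remodelling complex, with 2259 pooled, 915.9 in replicate 1 and 1354 in replicate 2. Both replicates placed that summit within 1 bp of the pooled one, and its bases are the first stretch printed above.

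Next came the promoter of Chro, which encodes a chromodomain protein of polytene interbands, and Ssl1, which encodes a TFIIH subunit, with 2130 pooled, 922.8 and 1207. Here the start sites were 105 bp apart and the summit lay outside them, 79 bp inside Chro. The same was true of CG11309/CG7632, whose start sites were 39 bp apart (1927 pooled, 853.4 and 1090.1), of Fbw5/CG9147 (1909, 828.1 and 1110.4), of Pex11ab/CG8320 (1901, 782.8 and 1131) and of CG8372/CG8360 (1814, 847.9 and 966.4). Of the 10 strongest members, then, these 5 had the summit outside the interval between the start sites.

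The others of the strongest 10 had it between them. Art3/mRpS10, an arginine methyltransferase gene beside a mitochondrial ribosomal one, had 1858 pooled, 797.3 in replicate 1 and 1070.2 in replicate 2. Pdrg1/Pal1, where Pal1 encodes an enzyme of peptide amidation, had 1678, 713.5 and 969.6. In all 10, replicate 2 was the higher, as it was at most members. Among the 500 strongest peaks of the whole list 81 were divergent summits, and among the 100 strongest 18 were, where divergent summits made up 12.8% of the list. One-direction summits, 27.6% of the list, numbered 173 and 43 there, and their highest pooled signal was 3180.

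The median signal of divergent summits was higher than that of one-direction promoter summits. The pooled median was 213.6 against 183.2, that of replicate 1 was 98.4 against 89.7 and that of replicate 2 was 122.0 against 102.8. Of the divergent summits 56.5% (Wilson interval 53.3 to 59.7) exceeded the median of both classes together, against 46.9% (44.8 to 49.1) of the one-direction summits. This is a difference of 9.59 percentage points (two-sided Fisher's exact test, Benjamini-Hochberg adjusted over 3 lists, p = 2.22e-06). The difference was 6.04 points in replicate 1 (adjusted exact p = 0.00278) and 11.2 points in replicate 2 (adjusted exact p = 5.58e-08). Among the 535 divergent summits in the upper 50% of all thresholded peaks by signal, the difference within that set was -1.60 points (unadjusted exact p = 0.590). These p-values are over peaks, which are not independent, and with 1 group there is no test across samples.

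The weakest members were close to the lowest signal in the list, 108.6. They were CG9003/CG34228 (108.8 pooled, 52.9 in replicate 1 and 59.7 in replicate 2) and Nph/Nlp, where Nlp encodes a nucleoplasmin-like chaperone (108.8, 37.9 and 70.3). The summit next to CG7369 was the other of the lowest 3 (108.8, 55.5 and 240.0), where the replicate 2 value is that of a summit on the other side of the CG7369 start site. Anywhere below the list's threshold, 1077 peaks of the relaxed pooled list met the position rule. They were led by CG15535/mRpS18C at 108.6 and had a median of 58.6. By distance, the farther start site was 497 bp from the summit at CG8229/Tom7, just inside the rule, and 504 bp at CG9727/Zif, just outside. At 69 members the farther start site was over 400 bp away, and 54 more peaks would have entered with a limit of 600 bp.

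A partner was missing in 1 replicate at 9 members. Of the 5 strongest of these, Vps36/Liprin-beta had 222.1 in replicate 2 (408.6 pooled), CG4572/CG4686 had 172.8 (292.2) and CG8152/Xpc, where Xpc encodes a DNA repair protein, had 115.1 (207.5). None of these 3 had a replicate 1 summit within 200 bp. At CG4572/CG4686, however, a replicate 1 summit of signal 116.9 lay just beyond that limit, at 19864647 against 19864442. It was the partner of another member summit of the same pair. The other 2, trbd/dmt and disp/ECSIT, had 76.5 and 73.7 in replicate 1 and no partner in replicate 2 (187.5 and 173.4 pooled). Their pooled signal was thus between the lower quartile and somewhat above the upper quartile of the members.

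At 77 pairs there were 2 or more member summits, which together made up 155 of the 927. In the 76 pairs with 2, the summits were at least 199 bp apart, and in 60 of them no more than 210 bp. The stronger of a pair had a median signal of 333.3 and the weaker of 149.4. The 3 members whose log2 ratio of replicate 2 to replicate 1 lay farthest from the members' median of 0.33 were weaker summits of this kind. At CG1275/Elp5, where Elp5 encodes an Elongator subunit, the weaker summit had 127.7 pooled, 396.3 in replicate 1 and 80.9 in replicate 2, and its neighbour had 915.6, 396.3 and 528.8. The replicate 1 value is the same peak in both cases. SMC6/CG6204 (289.6 against 62.7) and Brf/sds22 (336.2 against 83.4) had the same layout.

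Most divergent summits lay in the gap between the start sites. In 903 of the 927 (97.4%) the nearest start sites on the strands were in head-to-head order, with a median gap of 284 bp and quartiles of 210 and 386 bp. In the other 24 the annotated transcripts overlapped at their starts, by 2 to 282 bp, and the median signal was 182.0. The summit was between the start sites in 741 of 927 (79.9%, Wilson interval 77.2 to 82.4), and replicate summits were so in 739 of 922 (80.2%) in replicate 1 and 740 of 923 (80.2%) in replicate 2. The nearer start site was a median of 87 bp away, against 171 bp at one-direction summits, and the summit was upstream of it in 80.8% (78.1 to 83.2) and 74.8% (72.8 to 76.7). A short gap alone places a summit near a start site, and this was not tested. The nearer gene was on the plus strand at 490 and on the minus strand at the rest of 921 summits (53.2%, 49.97 to 56.4), with 6 at equal distance.

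**Figure D2:**
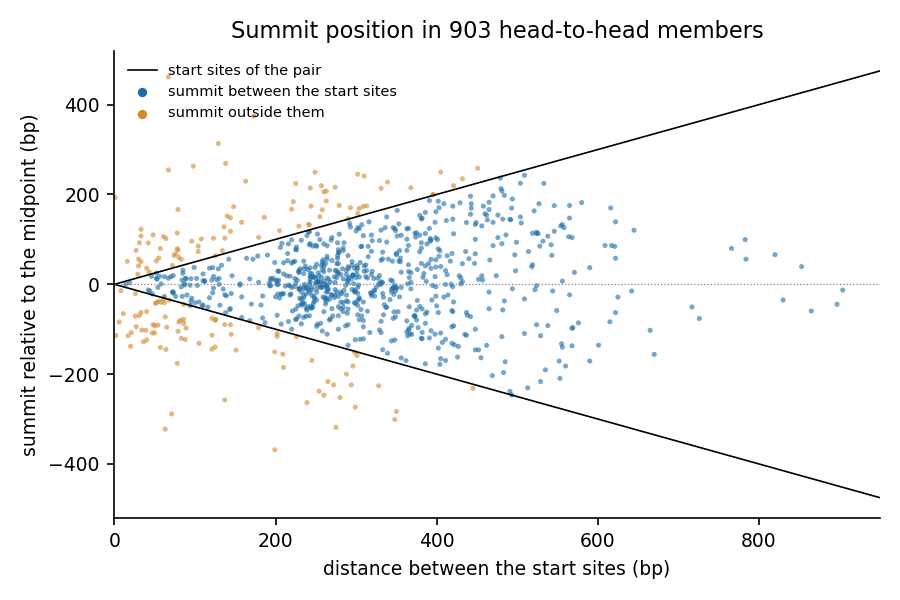
Position of the summit relative to the midpoint of the start sites, in bp, against the distance between them, for the 903 head-to-head members; the black lines are the start sites, blue points lie between them and orange points outside. Points gather around the midpoint at gaps of 200 to 300 bp, and most summits outside the lines belong to gaps under 200 bp.

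Position depended on the gap. Where the start sites were less than 100 bp apart, 32.5% of 114 summits (24.6 to 41.5) lay between them. At 100 to 200 bp this was 62.2% of 90 (51.9 to 71.5), at 200 to 300 bp 87.1% of 294 (82.8 to 90.4) and at 300 to 400 bp 92.9% of 210 (88.6 to 95.6). Wider gaps leave more room for a summit between the start sites and, under the 500 bp rule, less room outside them. With start sites over 500 bp apart, only a summit between them can meet the rule. The rise itself thus says little about preference, and the rule also enters the 79.9% over all members. At 200 to 300 bp, 197 of the 256 summits in the gap (77.0%) were nearer to the midpoint than to either start site, and the median distance of these 256 to the midpoint was 31.8 bp. At 300 to 400 bp it was 125 of 195 (64.1%) with 61.5 bp, and at 400 to 600 bp 90 of 165 (54.5%) with 113 bp. Below 100 bp it was 17 of 37 (45.9%), and at 100 to 200 bp 31 of 56 (55.4%). A summit placed evenly along the gap would be nearer to the midpoint as often as to a start site. The shares outside 200 to 400 bp lie close to that, and no share was tested against it. The 25 members with gaps of 600 bp and more had to lie near the middle to meet the 500 bp rule and are not read further.

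Pairs with start sites 200 to 400 bp apart also held a summit most often. The annotation has 2667 pairs of coding genes on opposite strands with start sites head to head within 1000 bp. Of the pairs 200 to 300 bp apart, 53.5% of 544 (49.3 to 57.6) had a thresholded summit within 500 bp of the midpoint, and at 300 to 400 bp 50.4% of 399 (45.5 to 55.3) had one. The share was 37.1% of 428 below 100 bp, 31.8% of 352 at 100 to 200 bp, 33.2% of 479 at 400 to 600 bp and 26.7% of 465 at 600 to 1000 bp. The intervals of the 2 middle classes do not reach those of the others. The median signal at members was 219.6, 201.3, 240.3, 216.7 and 188.9 from the shortest gap to 400 to 600 bp, highest at 200 to 300 bp among these 5 classes, and was not tested.

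**Figure D3:**
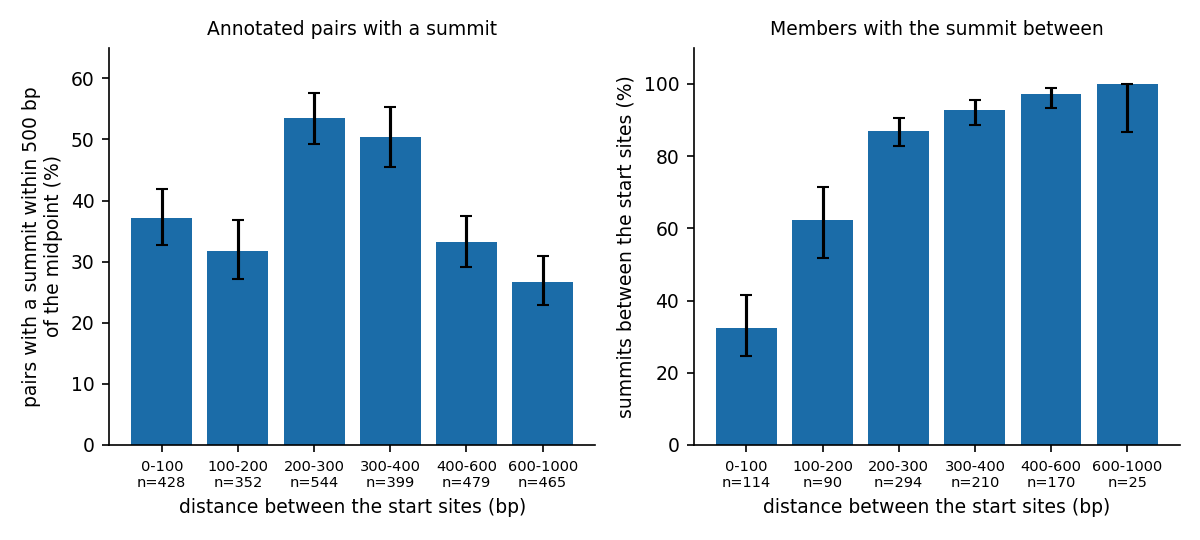
Left, share of annotated head-to-head coding pairs with a thresholded summit within 500 bp of the midpoint, by the distance between start sites; right, share of member summits between the start sites. Bars are percentages with 95% Wilson intervals and n below each bar. The left panel peaks at 200 to 400 bp (53.5% and 50.4%), and the right rises from 32.5% with the gap. In the right panel, only summits between the start sites can meet the 500 bp rule at gaps over 500 bp.

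Genes in head-to-head pairs were bound more often than other coding genes. Of all 13968 coding genes, 3366 had a summit within 500 bp of a start site, which is 24.1%. Of the 5052 genes in head-to-head pairs 2052 had one (40.6%, 39.3 to 42.0), and of the other 8916 genes 1314 did (14.7%, 14.0 to 15.5). In 949 of the 2667 pairs (35.6%) both genes were within 500 bp of a summit, in 295 (11.1%) 1 was, and in 1423 (53.4%) neither was. By the membership rule 915 pairs had a summit, or 34.3%. One summit can serve both genes of a pair, so the share per gene is not made of independent events. A summit at the partner's start site also counts for a gene that lies close enough, which raises the share of paired genes. How much of the difference this makes was not tested.

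The share of pairs with a member differed among the chromosome arms. It was 23.8% of 403 pairs on X (19.9 to 28.2), 35.8% of 509 on 2L (31.7 to 40.01), 32.2% of 543 on 2R (28.4 to 36.3), 35.9% of 518 on 3L (31.9 to 40.1) and 40.4% of 683 on 3R (36.8 to 44.1). No member lay on chromosome 4, which has 11 such pairs. The interval for X lay below those of all 4 large autosomal arms, and the median signal of the 93 members on X was 187.9, against 204.5 to 237.0 on those arms. Of the 458 coding promoter summits on X, 20.3% were divergent, against 29.5% to 37.3% on those arms. The share of males among the larvae was not recorded, and its part in the X values was not tested.

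The summits sat in a valley of exons and a peak of A and T. In the 101 bp around a divergent summit 67.0% ± 9.88 of bases were A or T (mean ± SD over 927), against 62.8% ± 10.6 at 1992 one-direction summits. In windows of equal size centred 400 bp away at lower coordinates the values were 52.0% ± 9.27 and 56.8% ± 10.7. Of these flank windows 92.7% (90.8 to 94.2) contained an exon base at divergent and 57.2% (55.0 to 59.3) at one-direction promoters, and of the summit windows 44.1% and 38.2% did. Read in the direction of the nearer gene, the A and T share at divergent summits reached 69.0% at 60 to 80 bp upstream of the summit and was 51.1% and 48.8% at 500 bp on the upstream and downstream side.

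**Figure D4:**
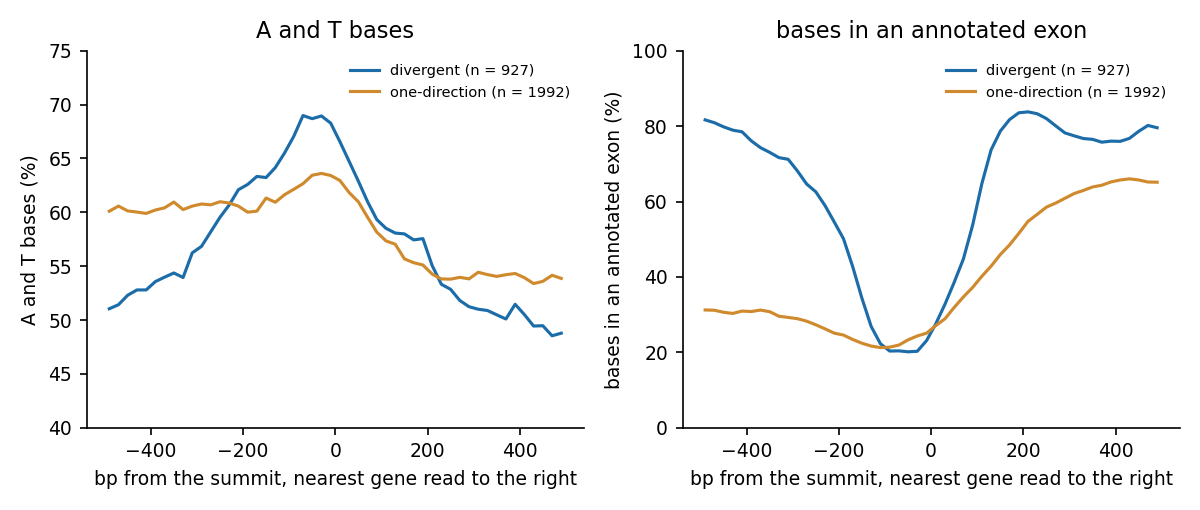
Percentage of A and T bases (left) and of bases in an annotated exon (right) in steps of 20 bp around the summit, with the nearer gene reading to the right, for 927 divergent and 1992 one-direction summits. The divergent curve is high in A and T and low in exons at the centre and changes on both sides, while upstream of one-direction summits the sequence stays at about 60% A and T with few exons; the left axis starts at 40%.

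Motifs were counted as present or absent on either strand in the 101 bp window, and 15 words were tested against the flank. At divergent summits 5 were more frequent than in their flanks and 2 less frequent at an adjusted p below 0.05 (two-sided exact McNemar test, Benjamini-Hochberg over 15). Over all 7223 thresholded peaks the same test called 8 more frequent (53.3%) and 6 less frequent (40%), with many more windows. The homeodomain core TAAT, which TAATTA and TAATTG contain, was in 79.8% (77.1 to 82.3) of the divergent summit windows and 47.6% of flanks (adjusted exact p = 2.55e-42), and over all thresholded peaks in 75.04%. TAATTA was in 12.4% (10.4 to 14.7) and 2.91% (adjusted exact p = 1.43e-14), and in 9.72% of all. The TATA box word TATAAA was in 24.8% and 6.47% (adjusted exact p = 1.27e-27), and in 21.6% of all.

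The DRE word TATCGATA was in 4.10% (3.001 to 5.58) of divergent summit windows, in 0.863% of flanks (adjusted exact p = 1.14e-05) and in 1.11% of all thresholded peak windows. CGATA, which lies inside TATCGATA, was in 24.3% (21.6 to 27.1) against 14.3% (adjusted exact p = 2.14e-07), and in 13.9% of all. Flanks of all thresholded peaks held the DRE in 0.318% and CGATA in 10.8%. Less frequent at the summits were GAGAG, the word of GAGA factor, and GCCAT, the core of Pho sites. GAGAG was in 6.58% against 12.9% (adjusted exact p = 1.14e-05), and over all thresholded peaks in 11.5% against 15.2% of flanks. GCCAT was in 11.4% against 21.7% (adjusted exact p = 7.21e-09), and over all thresholded peaks in 13.0% against 18.7%. The other 8 words did not pass. They were the homeodomain word TAATTG, the M1BP core GGTCACAC, the E-box CAGCTG, another E-box with CACGTG, the Zelda word CAGGTAG, the nuclear receptor word AGGTCA, the GATA factor word GATAAG and the initiator core TCAGT, with adjusted p-values from 0.0704 to 0.634. The difference in A and T and in exons between the windows, given above, moves with these counts, and its part in them was not tested.

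Against one-direction promoter summits, 6 of the 15 words differed (40%; two-sided Fisher's exact test, adjusted over 15). More frequent at divergent summits were TAAT (79.8% against 68.3%, adjusted exact p = 5.03e-10), TAATTA (12.4% against 7.43%, adjusted exact p = 7.84e-05) and TATAAA (24.8% against 18.3%, adjusted exact p = 0.000190). The same held for the DRE (4.10% against 1.86%, adjusted exact p = 0.00152) and CGATA (24.3% against 16.2%, adjusted exact p = 1.67e-06). GAGAG was less frequent (6.58% against 14.96%, adjusted exact p = 4.08e-10). The 2 classes differ in base composition, so the counts were repeated in windows of 60 to 70% A and T alone, 280 divergent and 592 one-direction, an alternative chosen after the data were seen. There TAAT was in 81.8% against 79.2%, TAATTA in 8.21% against 7.09% and TATAAA in 20% against 18.1% (adjusted exact p = 0.671 for each), and GAGAG in 5.36% against 9.97% (adjusted exact p = 0.0789). The DRE was in 6.07% against 1.01% and CGATA in 28.6% against 16.7% (adjusted exact p = 0.000559 for both). Over all windows, the CGATA difference of 8.06 percentage points was 4.38 with start sites within 250 bp (adjusted exact p = 0.0536). The DRE difference of 2.24 points was 1.64 with canonical start sites alone (adjusted exact p = 0.0820) and 1.98 among the upper 50% of peaks by signal (adjusted exact p = 0.0691), with 535 divergent summits in place of 927. The TATAAA difference of 6.49 points was 1.86 among those stronger peaks (adjusted exact p = 0.674).

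The words differed in where they lay. TAATTA reached 1.39 matches per kb within 50 bp of divergent summits and 1.43 at 50 to 100 bp, and was at 0.334 at 450 to 500 bp. TATAAA had 3.38 per kb within 50 bp and 0.475 at 450 to 500 bp. The DRE had 0.518 per kb within 50 bp, 0.604 at 50 to 100 bp and 0.755 at 100 to 150 bp (48, 56 and 70 matches), and 0.0324 at 450 to 500 bp. At one-direction summits the DRE had 0.201, 0.201 and 0.191 per kb over the same first 3 steps. DRE matches were thus at least as dense 100 to 150 bp away as at the divergent summits themselves.

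**Figure D5:**
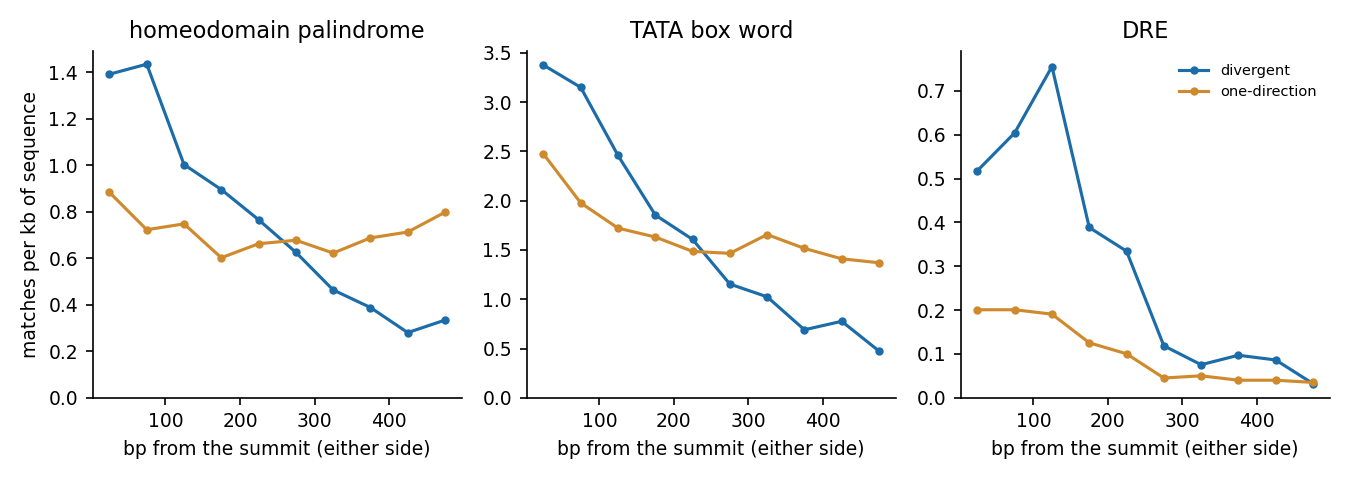
Matches per kb of sequence in steps of 50 bp from the summit, both sides and strands together, for the homeodomain palindrome, the TATA box word and the DRE, at 927 divergent and 1992 one-direction summits. The first 2 are densest within 100 bp of divergent summits (1.39 and 1.43, 3.38 and 3.15 per kb), and the DRE at 100 to 150 bp (0.755).

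At the start sites themselves the core promoter words were distributed differently. The DRE was present within 150 bp upstream of 213 of 1719 start sites next to divergent summits (12.4%, 10.9 to 14.0), of 95 of 1844 start sites next to one-direction summits (5.15%, 4.23 to 6.26) and of 1104 of all 19253 coding start sites (5.73%, 5.41 to 6.07). TATAAA in the gene's direction, between 40 and 20 bp upstream where TATA boxes lie, was at 23 of the 1719 (1.34%, 0.893 to 2.00), at 66 of the 1844 (3.58%, 2.82 to 4.53) and at 1191 of all (6.19%, 5.85 to 6.54). Read against the gene's direction in the same place it was at 0.989% of the 1719. TCAGT, the initiator core, within 5 bp of the start was at 46 (2.68%, 2.01 to 3.55), 217 (11.8%, 10.4 to 13.3) and 1586 (8.24%, 7.86 to 8.63). Start sites next to divergent summits thus had the DRE more often, and TATAAA and TCAGT less often, than all coding start sites, by intervals that do not overlap. Both start sites of a member were counted, and the median gap between those in head-to-head order was 284 bp. A single DRE in the gap can thus count for both start sites, and the intervals leave this out. How much it adds to the 12.4% was not tested. Start sites of a gene can also lie close together, and no test was made.

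Signal at members was also compared by these words, without a test. Members with TAAT had a pooled median of 228.6 (n = 740) and those without it 176.8 (n = 187), with 103.0 against 83.2 in replicate 1 and 130.5 against 102.5 in replicate 2. Members with TAATTA had 248.4 (n = 115) against 209.9. Members with the DRE had 193.4 (n = 38) against 216.6, and those with CGATA 190.0 (n = 225) against 226.7.

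The genes at divergent summits were described by 12 lists of gene families, matched by symbol. For each list the share of coding genes with a summit is read beside the 24.1% of all coding genes. The signal of its member summits is read beside the median of 213.6 over all members. Many listed genes are paired head to head, and 40.6% of all paired genes had a summit. Among paired genes of the lists, a summit was at 46 of 54 for cytoplasmic ribosomal proteins, 29 of 58 for mitochondrial ones and 14 of 27 for translation factors. The counts were 11 of 23 for aminoacyl-tRNA synthetases, 25 of 58 for transcription and 12 of 30 for splicing. For replication they were 6 of 18, for the respiratory chain 15 of 45, for the proteasome 10 of 26 and for heat shock 6 of 10. Of all 3366 coding genes with a summit, 1754 lay at a divergent summit, and counts of listed genes at divergent summits are read beside this. Lists were chosen with earlier results known and were not tested. Among genes of translation, 68 of 87 genes of cytoplasmic ribosomal proteins had a summit (78.2%), and 32 of them lay at 37 divergent summits with a median signal of 288.4. The strongest was at Ripalpha/RpL7 (769.9 pooled, 374.3 in replicate 1 and 403.4 in replicate 2), and the next at RpS27/Nup37, where Nup37 encodes a nuclear pore protein (725.2, 301.6 and 415.3). The summit was nearer to the ribosomal protein gene than to its partner at 30 of the 37. Over all members the DRE was within 50 bp of 38 of 927 summits (4.10%). Among these 37 it was within 50 bp of 6, among them RpL28/eIF1 (405.1, 180.4 and 217.5) and RpS25/CG4820 (370.5, 175.2 and 192.3), printed above. One of these pairs, named after its values were seen, joins RpL13 with Dref, which encodes the DRE-binding factor (475.4, 236.2 and 228.6).

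Mitochondrial ribosomal protein genes had a summit at 32 of 73 (43.8%), of which 27 lay at 27 divergent summits. Those summits ranged from 112.4 to 2265 with a median of 195.9, and were led by mRpS23/CenG1A and Art3/mRpS10, given above. The mitochondrial ribosomal gene was the nearer one at 10 of the 27. None of the 27 windows held the DRE, which was in 4.10% of all divergent summit windows, so few would be looked for among 27. No member window of the respiratory chain, aminoacyl-tRNA synthetase, transcription, splicing, replication or heat shock lists held it either. Translation factors had it at 3 of 12 and the proteasome at 1 of 11.

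Translation factor genes had a summit at 20 of 53 (37.7%), with 9 genes at 12 divergent summits of median 269.5. They were led by eIF4EHP/CG18428, where eIF4EHP encodes a cap-binding repressor of translation (1216, 532.1 and 701.1), and eIF3h/senju (489.1, 212.8 and 266.8). Aminoacyl-tRNA synthetase genes had one at 13 of 33 (39.4%), 11 of them at 12 divergent summits of median 213.6, led by SerRS/CG17260 (678.4, 283.0 and 388.0) and GluProRS/AP-1sigma (448.4, 185.4 and 262.3). At SerRS/CG17260 the start sites were 8 bp apart, and the summit lay 10 bp inside SerRS.

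Among genes of transcription and RNA processing, 30 of 85 genes of the transcription machinery and Mediator had a summit (35.3%), 24 of them at 27 divergent summits of median 253.8. MED30/Rev1, a Mediator subunit gene beside a translesion polymerase gene, had 834.6 pooled, 370.7 in replicate 1 and 460.3 in replicate 2. The next, 140up/Polr2B, where Polr2B encodes an RNA polymerase II subunit, had 605.4, 253.1 and 361.0. Splicing and snRNP genes had a summit at 12 of 34 (35.3%), 11 of them at divergent summits of median 173.2, led by Sf3b6/Tnpo (348.5, 168.9 and 179.0) and snRNP-U1-C/gukh (318.5, 154.1 and 163.4).

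Genes of DNA replication and repair had a summit at 8 of 31 (25.8%), a share close to that of all coding genes. Of these 6 lay at 5 divergent summits of median 195.0. CG13933/PolD2, where PolD2 encodes a subunit of DNA polymerase delta, had 989.6, 454.5 and 557.2. RPA1/Mcm2 joins a single-strand binding protein gene with a gene of the replicative helicase, both of the list, and had 292.1, 109.5 and 177.4. It is the reason that 6 genes share 5 summits.

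Respiratory chain and ATP synthase genes had a summit at 21 of 91 (23.1%), also close to all genes, with 15 genes at 15 divergent summits of median 181.2, and the listed gene was the nearer one at 13. ND-ASHI/Fum1, a complex I gene beside the fumarase gene, had 634.0, 302.2 and 379.0, and TppII/ND-MWFE had 351.0, 138.5 and 212.5. Proteasome subunit genes had one at 10 of 48 (20.8%), and all 10 lay at divergent summits, 11 in number with a median of 204.5. The strongest 2 of these were both at Hat1/Rpn5, where Hat1 encodes a histone acetyltransferase (449.9, 184.9 and 260.2, and 346.4, 145.6 and 205.1). Heat shock protein genes had one at 12 of 27 (44.4%), but 3 of them at 4 divergent summits, led by Hsc70-5/CG8531 (424.2, 182.7 and 241.9) and DnaJ-H/Sirt1 (311.7, 107.1 and 208.1).

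The cuticle protein and homeobox gene families showed no divergent summit. Of 120 cuticle protein genes, which are expressed in the epidermis, 13 were in head-to-head pairs and none of those had a summit, and 1 of the 120 did (0.833%). Of 84 homeobox genes 4 were in head-to-head pairs, none with a summit, and 7 of the 84 (8.33%) had one elsewhere. With so few paired genes in these families, a share of divergent summits cannot be read from them.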

How the data were processed

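Peak lists in dm6 coordinates were read as deposited: a relaxed list of 30000 peaks for each of the 2 replicates, one on both replicates pooled and a list of 7223 thresholded on the irreproducible discovery rate, per the file names and labels. The signal values (column 7) are those the authors deposited, on a scale not stated; which aligner and caller produced them is not given in the sources used here. Chromatin was sonicated to 200 to 800 bp, per the labels. The deposited dm3 lists were not used here. Positions count from 1.

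Summits were set against start sites of the Ensembl annotation of BDGP6, release 115 (13968 coding genes), and the RefSeq Release 6 sequence. Motif tests were exact McNemar and Fisher tests, two-sided, with Benjamini-Hochberg adjustment and a threshold of 0.05. They were also run on simulated windows with the same base frequencies in both sets. Such windows cannot show how a difference in base composition affects the tests. Intervals are 95% Wilson intervals. Named members were the 10 strongest, the 2 strongest of each list, the 3 lowest, up to 5 without a partner and the 3 whose log2 replicate ratio lay farthest from the median. One of the members that this rule names is not reported here. Alternatives were other distances, canonical start sites, other windows and flanks, the stronger peaks, and each replicate alone. The members, motifs and gene lists were chosen with earlier results of these data known. A single group allowed no test across samples. Scripts ran in Python 3.11.15 (scipy 1.17.1, numpy 2.4.6, matplotlib 3.10.9, pandas 2.3.3).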

Additional observations from a re-analysis of the deposited data

How the results depend on the processing

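The number of divergent summits was 927, and it was 594 with start sites within 250 bp and 535 among the upper 50% of the thresholded peaks by signal. The share between the start sites fell to 74.5% with start sites within 1000 bp. The excess of divergent over one-direction summits in the upper 50% of signal, 9.59 percentage points, was -1.60 among those stronger peaks. Words more frequent than in flanks numbered 5, and 8 in windows within 100 bp; words less frequent numbered 2, and 4 there. Against one-direction summits, 5 words were more frequent, 3 among the stronger peaks and 2 in windows of 60 to 70% A and T, the last an alternative added after the data were seen; 1 word was less frequent, 2 among head-to-head members, 2 in windows within 100 bp and 0 at 60 to 70% A and T (Fisher's exact test). The share of paired genes with a summit, 40.6%, was 45.1% for pairs within 500 bp, 36.6% within 2000 bp, 34.1% with summits within 250 bp, 45.9% within 1000 bp and 37.6% for canonical start sites. With each replicate left out in turn and the strongest peaks of the other taken, the number of members was 903 to 936, the share between start sites 77.4% to 79.0%, that excess 9.41 to 9.94 points and the share of paired genes 39.7% to 40.5%. Words more frequent than in flanks were 8 in both cases, the added ones being TAATTG, GGTCACAC and GATAAG, and less frequent words 2 to 3. Against one-direction summits 6 words were more frequent in both cases, GGTCACAC being the added one, and 1 to 2 less frequent. The cause of these changes was not tested. No paired analysis was possible because there was 1 group. The depth of sequencing is unknown, so its limits could not be given.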
